A study of Mus musculus with 14 samples.

Results

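The 6 genes described here are 4 members of the tripartite motif family, *Trim30*, *Trim21*, *Trim25* and *Trim34*, and the plant homeodomain (PHD) finger gene *Phf11* with its relative *D14Ertd668e*, out of 27962 gene names on the array. They were found as the non-control probes whose gene name in the array files equals 1 of these names, which gave 10 probes, and no probe was lost to the filter on dim signals. The genes were chosen by their measured values in 3 comparisons, wild type p65 over the empty vector at 3 h and each p65 mutant over wild type. Those comparisons are therefore given as values without a test. Current symbols, matched by transcript accession to RefSeq (GRCm38.p6), are *Trim30a* for *Trim30*, *Trim34a* for *Trim34*, *Phf11a* for *Phf11* and *Phf11d* for *D14Ertd668e*. *Trim30a* and *Trim34a* have near copies on chromosome 7 and the Phf11 genes on chromosome 14. The probe sequences were not used here, so it is uncertain whether a probe reads 1 copy or several.

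Gene expression was measured with 1-colour Agilent arrays in mouse embryonic fibroblasts (MEFs) that lack p65, the NF-κB subunit encoded by *Rela*. All 5 groups share this p65-/- background and a lentiviral vector. The cells had been complemented with wild type p65 (wt), with the acetylation-deficient mutant K314/315R, in which both lysines of its name are arginines, with the mutant KTR, which carries 3 such exchanges, or with the empty vector pTV. Each line was a blasticidin-selected pool of infected cells, not a clone. After overnight starvation the cells received 30 ng/ml mouse TNFα for 3 h, and wt cells were also measured untreated at 0 h. Each group had 3 arrays except K314/315R, which had 2, from biological replicates whose RNA was isolated on different days. Untreated pTV and mutant cells were not analysed here. In such bulk RNA, fewer cells that express a gene and less RNA per cell cannot be told apart.

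TRIM proteins share a RING domain, B-boxes and a coiled coil, and many act as E3 ubiquitin ligases in antiviral defence. Trim25 ubiquitinates RIG-I, the cytosolic sensor of viral RNA, and Trim21 (also known as Ro52) is a cytosolic receptor for antibody-coated virus. Trim30 dampens NF-κB signalling downstream of Toll-like receptors. Many PHD fingers bind histone tails, and PHF11 has been described as a transcriptional cofactor in T cells. Type I interferon induces many such genes through the interferon-stimulated response element (ISRE) in their promoters, whereas p65 binds κB sites.

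The promoters are shown because the 6 genes were low together in pTV, and an ISRE is the element by which interferon acts on such genes. RefSeq (GRCm38.p6) held a window for each of the 6 genes, running from 250 bases before to 50 after the start. Each line below gives 120 bases before and 30 bases from the start, in the direction of transcription, with matches to the ISRE core (GAAA, any 2 bases, then GAAA, on either strand) in capitals.
*Trim30a*, chr7:104465164-104465313, minus strand: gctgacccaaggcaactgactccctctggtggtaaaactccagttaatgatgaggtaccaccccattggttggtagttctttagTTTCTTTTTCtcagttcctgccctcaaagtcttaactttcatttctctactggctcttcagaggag
*Trim21*, chr7:102565453-102565602, minus strand: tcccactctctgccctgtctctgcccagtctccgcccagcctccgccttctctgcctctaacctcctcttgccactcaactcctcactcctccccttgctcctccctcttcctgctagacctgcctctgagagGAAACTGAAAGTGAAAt
*Trim34a*, chr7:104244337-104244486, plus strand: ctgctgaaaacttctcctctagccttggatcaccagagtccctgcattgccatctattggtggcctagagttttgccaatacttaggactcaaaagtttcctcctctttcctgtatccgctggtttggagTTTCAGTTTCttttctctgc
*Phf11a*, chr14:59297493-59297642, minus strand: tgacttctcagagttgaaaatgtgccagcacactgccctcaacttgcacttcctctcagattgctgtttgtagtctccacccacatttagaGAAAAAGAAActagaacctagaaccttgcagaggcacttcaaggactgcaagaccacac
*Trim25*, chr11:88999283-88999432, plus strand: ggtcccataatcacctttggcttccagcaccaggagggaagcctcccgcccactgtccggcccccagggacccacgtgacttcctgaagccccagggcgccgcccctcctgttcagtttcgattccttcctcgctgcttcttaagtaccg
*Phf11d*, chr14:59365461-59365610, minus strand: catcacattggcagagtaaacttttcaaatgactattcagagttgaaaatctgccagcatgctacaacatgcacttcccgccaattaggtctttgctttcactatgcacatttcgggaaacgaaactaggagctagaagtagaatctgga

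The ISRE core was found in the windows of 4 of the 6 genes. It lay at positions −36 to −27 in *Trim30a* and −29 to −20 in *Phf11a*, counted with the first transcribed base as 1. In *Trim34a* it lay at positions 11 to 20, just inside the transcribed part. *Trim21* held 2 overlapping matches, at 14 to 23 and at 20 to 29. A second annotated start of *Trim30a* also had a match, at 3 to 12. Of all 32851 promoter windows of 300 bases, 3.44% held the core. Neither *Trim25* nor *Phf11d* had a match, which says only that these letters are not in this window. The κB consensus, found in 8.46% of all windows, and the interferon-γ-activated site TTCNNNGAA, found in 8.30%, were in none of the 6. A match is a description of the sequence and not a measured site.

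On the arrays, between 48.9% and 57.4% of probes were well above background. The 2 *Rela* probes did not check the labels, since the part of the transcript they read was not analysed here. The brighter gave a log2 signal of 1.00, 1.19 and 1.34 on the pTV arrays, of 1.04, 0.97 and 1.03 in wt at 0 h and of 1.52, 1.52 and 1.54 in wt at 3 h. The other gave −2.84 to −2.31 in pTV, −2.65 to −2.49 in wt at 0 h and −2.07 to −1.88 in wt at 3 h. Both were thus higher in wt at 3 h than in pTV or wt at 0 h, on all arrays. The brighter probe gave 1.39, 1.54 and 0.79 in KTR, overlapping with pTV, and 1.54 and 1.87 in K314/315R. The other gave −2.26, −2.16 and −1.99 in KTR and −2.06 and −1.51 in K314/315R. Fibroblast markers were present (7 of 8 genes on all 14 arrays, *Pdgfrb* on 13). The leukocyte markers *Ptprc*, *Emr1* and *Itgam* and all 3 endothelial markers were not well above background on any array, and *Cd3e* was so on all 14. The summed signal of the 8 leukocyte markers, in units of the array's 75th percentile, was 0.359 to 0.395 in wt at 3 h and 0.394 to 0.785 in pTV, beside 655 to 758 and 667.7 to 850.4 for 7 fibroblast markers. Single fibroblast markers differed in pTV, with a mean log2 signal of −0.60 for *Pdgfra* against 1.02 to 1.66 in the p65 groups, 3.14 against 4.90 to 5.20 for *Pdgfrb*, and 1.91 against 0.39 to 0.96 for *Thy1*. Of the 4 epithelial markers, *Cdh1* and *Tacstd1* were not well above background on any array and *Krt8* was so on all 14. *Krt18* had a mean log2 signal of −2.94 in pTV against −5.53 to −4.72 in the p65 groups and was well above background on 5 arrays. The summed signal of the 4 was highest in pTV, at 0.308 to 0.382, against 0.171 to 0.208 in wt at 3 h, 0.246 to 0.253 in wt at 0 h, 0.216 to 0.248 in KTR and 0.233 to 0.260 in K314/315R. The part of these markers in the differences from pTV was not tested. Replicates 1 to 3 of wt at 3 h, wt at 0 h, KTR and pTV lay on slides 1 to 3, whereas both K314/315R arrays lay on a slide of their own, scanned separately, so slide and cell line cannot be told apart there. The spike-in controls on that slide were 1.13 higher, on the log2 scale relative to the 75th percentile, than on the other slides.

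The *Phf11* probe and the brighter *Trim30* probe were detected on all arrays of the p65 lines and on no pTV array. Signals are given as log2 of the ratio to the array's 75th percentile, by replicate. The signal of *Phf11* was −0.11, 0.14 and −0.76 in wt at 3 h and −0.34, −0.09 and −1.14 in wt at 0 h. K314/315R gave −0.73 and −1.65, KTR gave −1.80, −1.55 and −1.78, and pTV gave −5.63, −5.78 and −5.32. No pTV array was well above background at this probe, so wt at 3 h exceeded pTV by at least 22.9-fold, a bound set by the dimmest probe called present on each pTV array. The bound holds for the scanner's own background correction. The measured log2 difference of 5.33 was 2.68 with normexp background correction, and 3.42 when local backgrounds above the signal were replaced first, a fit chosen after seeing the data. All 3 KTR arrays lay below all wt arrays, while the lower K314/315R array lay within the KTR range and the higher within that of wt.

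The main probe of *Trim30*, taken as the brightest of its 2, showed the same order of groups. Its signal was −1.01, −0.74 and −1.49 in wt at 3 h and −0.82, −0.998 and −1.65 in wt at 0 h. It was −1.66 and −1.97 in K314/315R, −2.41, −2.03 and −2.25 in KTR, and −4.91, −5.65 and −5.05 in pTV, again not well above background on any pTV array. The 2 mutants each lay below all 3 wt arrays at 3 h and did not overlap with each other. Wt at 3 h exceeded pTV by at least 12.8-fold, and the measured log2 difference of 4.12 was 1.96 and 2.48 under the same 2 corrections. The second *Trim30* probe followed the first over the 14 arrays (Pearson's r = 0.944 across arrays that share the same groups, given without a test), with −0.74, −1.71 and −2.44 in wt at 3 h, −3.02, −3.24 and −3.18 in KTR, and −4.97, −5.52 and −4.52 in pTV, where only replicate 3 was well above background.

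*D14Ertd668e* (*Phf11d*) had a signal of −0.86, −0.49 and −1.50 in wt at 3 h and −0.89, −0.75 and −1.72 in wt at 0 h. K314/315R gave −1.19 and −1.61, KTR gave −2.34, −2.29 and −2.69, and pTV gave −4.82, −5.22 and −4.66, with only replicate 3 well above background. K314/315R lay here within the range of the wt arrays of both times together, and its lower array lay below all wt arrays at 3 h. KTR lay below wt and K314/315R without overlap. Replicate 3, on slide 3, was the lowest wt array at both times for *Phf11*, *D14Ertd668e* and both *Trim30* probes.

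*Trim34*, a relative of *Trim30*, was read by 3 probes. The main probe gave −1.31, −1.48 and −1.58 in wt at 3 h, −1.81, −1.81 and −2.18 in wt at 0 h, and −3.37, −3.91 and −3.57 in pTV. K314/315R gave −1.58 and −2.22, and KTR gave −1.77, −2.27 and −2.39, so the mutants overlapped with each other and KTR lay below wt at 3 h. The second probe followed the main probe (Pearson's r = 0.976), from −2.82 ± 0.30 (SD, n = 3) in wt at 3 h to −5.32 ± 0.66 (SD, n = 3) in pTV, with 1 pTV array well above background. The third probe did not (r = 0.152). It was well above background on 7 of the 14 arrays, none of them KTR, and its highest value, −3.81, was on a pTV array.

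*Trim21* was well above background on all 14 arrays. Its signal was −0.49, −0.29 and −0.58 in wt at 3 h, and −1.28, −1.13 and −1.26 in wt at 0 h. K314/315R gave −0.46 and −0.84, KTR gave −0.84, −0.77 and −0.98, and pTV gave −3.33, −3.48 and −2.83. Untreated wt cells were thus the lowest of the p65 lines, without overlap with any TNFα-treated p65 line. For *Phf11* and *Trim30*, by contrast, the mean in wt at 0 h was above that of both mutants.

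Among the main probes, that of *Trim25* had the least spread across the p65 lines. The main probe gave 2.18, 2.09 and 1.81 in wt at 3 h, 2.15, 2.13 and 1.78 in wt at 0 h, 2.20 and 1.90 in K314/315R, and 1.91, 1.81 and 2.09 in KTR. These 4 groups overlapped with one another, and the pTV arrays lay apart at 0.54, 0.32 and 0.49. The second probe had the same low values in pTV, −2.47, −3.41 and −3.25, but a KTR group of −1.60, −2.78 and −1.43, whose lowest array fell within the pTV range.

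**Figure D1:**
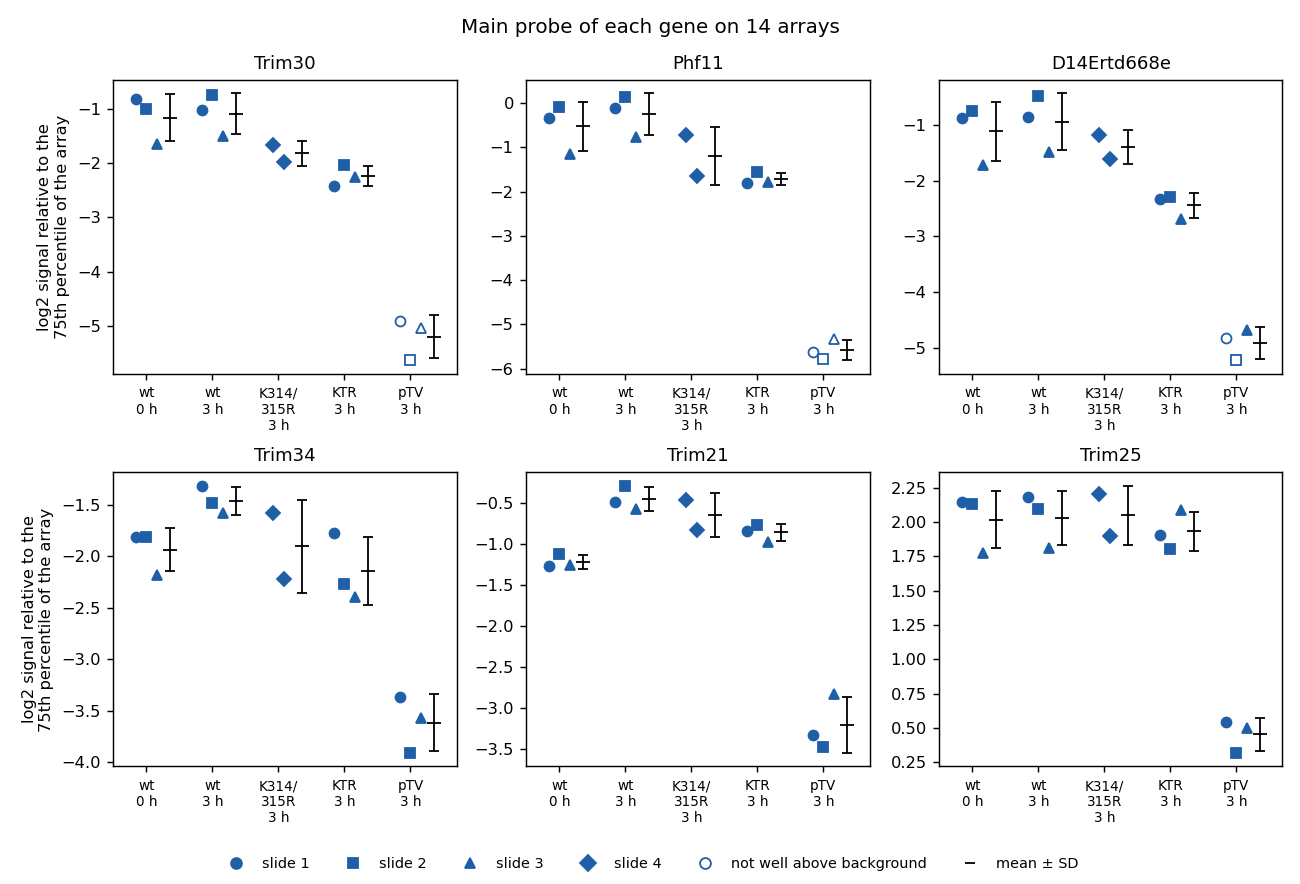
Signal as log2 of the ratio to the array's 75th percentile (vertical axis) for the main probe of each gene in the 5 groups (horizontal axis), with 1 point per array, its shape for the slide, and the mean ± SD beside it. Open points were not well above background. The pTV arrays lie below every other array in all 6 panels, KTR lies below wt at 3 h in all but *Trim25*, and *Trim21* alone has all wt arrays at 0 h below all arrays of both mutants.

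**Figure D2:**
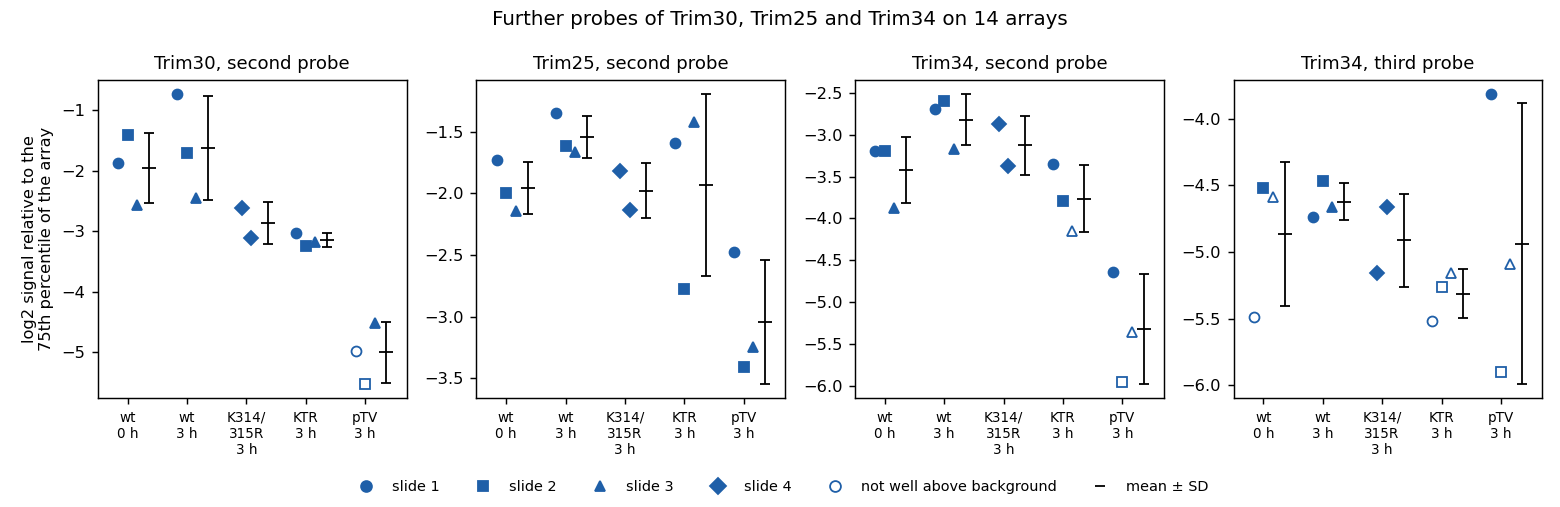
The second probes of *Trim30*, *Trim25* and *Trim34* and the third of *Trim34*, with axes and symbols as for the main probes. The second probes repeat the low pTV values, except for 1 KTR array of *Trim25*, and the third *Trim34* probe is near background in most groups.

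In the values that chose the genes, 9 of the 10 probes, from all 6 genes, were over 2-fold higher in wt than in pTV at 3 h, a size that 3.74% of the 22172 tested probes reached. The same 9 had all wt arrays above all pTV arrays, as did 16.2% of tested probes. Where pTV was measured on every array, the fold was 6.76 for *Trim21*, 4.48 for *Trim34* and 2.98 for *Trim25*. In KTR, 5 of the 10 probes from 4 genes had under 0.556 of the wt signal (0.956% of all tested probes), namely *Phf11* at 0.362, *D14Ertd668e* at 0.356, both *Trim30* probes at 0.450 and 0.349, and the second *Trim34* probe at 0.520. KTR lay below wt on all arrays for 8 of the 10 probes, and for 5.06% of all tested probes. The KTR to wt ratio was 0.754 for *Trim21* and 0.936 for *Trim25*, whose log2 difference of −0.10 turned to 0.21 with normexp. Within slides 1, 2 and 3, the log2 difference of KTR from wt was −1.69, −1.69 and −1.02 for *Phf11* and −1.40, −1.29 and −0.75 for *Trim30*, so each slide had the same direction and slide 3 the least difference.

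K314/315R over wt was closer to 1 than KTR over wt, except at the second *Trim25* probe (0.739 against 0.764). The ratio was under 0.556 for 2 of the 10 probes (3.76% of all tested probes), *Phf11* at 0.519 and the second *Trim30* probe at 0.427. It was 0.601 for the main *Trim30* probe, 0.731 for *D14Ertd668e*, 0.734 for *Trim34*, 0.874 for *Trim21* and 1.01 for *Trim25*. All K314/315R arrays lay below all wt arrays for 4 of the 10 probes, a share to be read beside 17.2% of all tested probes.

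The comparison of untreated wt cells with pTV asks how much of the gap between these lines was there without TNFα. It does so only as far as pTV cells at 3 h can stand for untreated ones. The comparison shares the pTV arrays with the values that chose the genes, so its p-values and calls are not independent of that choice. Each line was a pool, so SE and p do not cover the spread between pools. A probe was called at over 1.8-fold and an adjusted p under 0.05 (limma, Benjamini-Hochberg over all tested probes). Of the 10 probes, 9 were called higher in wt at 0 h, from all 6 genes, a count that the choice of genes favours. Of all tested probes 4.74% were called higher. The median log2 difference of the 10 probes was 1.94, and that of all tested probes was 0.00. *Phf11* was higher by at least 18.8-fold (limma adjusted p = 5.55e-07) and *Trim30* by at least 12.2-fold (limma adjusted p = 7.51e-07). *D14Ertd668e* had a log2 difference of 3.78 ± 0.29 (SE; limma adjusted p = 2.78e-06), with 1 of 3 pTV arrays well above background. *Trim21* differed by 1.99 ± 0.16 (SE), *Trim34* by 1.69 ± 0.21 (SE) and *Trim25* by 1.57 ± 0.14 (SE) on the log2 scale. The third *Trim34* probe was not called (log2 difference 0.07, 95% interval −0.84 to 0.99). The second *Trim25* probe had the highest limma adjusted p of the 9 called (0.0299), and its call was lost without pTV replicate 2 or 3 or any 1 of the wt arrays at 0 h. With normexp background correction only 2 of the 9 were called here, *Phf11* and *Trim25*, with *Phf11* at a log2 difference of 2.42 and *Trim30* at 1.63.

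The triple mutant KTR was compared with pTV to see what it retained, at the same time and on the same slides. On the log2 scale this difference is the sum of 2 comparisons that chose the genes, wt over pTV and KTR over wt, so it is given without a test. Of the 10 probes, 9 from all 6 genes met the limits of a call, as did 4.06% of all tested probes, and nothing is read from this count. The median log2 difference was 1.70 for the 10 probes and 0.02 for all tested probes. *Phf11* was higher in KTR by at least 8.28-fold and *Trim30* by at least 5.77-fold, bounds that hold for the scanner's own background correction. With normexp the log2 difference was 1.47 for *Phf11* and 0.86 for *Trim30*. *D14Ertd668e*, with 1 of 3 pTV arrays well above background, was higher by 2.46 ± 0.29 (SE) on the log2 scale, and by 0.69 with normexp. *Trim21* was higher by 2.35 ± 0.16 (SE), *Trim25* by 1.48 ± 0.14 (SE) and *Trim34* by 1.48 ± 0.21 (SE). The second *Trim25* probe, with 1 KTR array within the pTV range, was higher by 1.11 and met the limits in 6 of the 14 fits without a single array. With normexp 2 of the 10 probes met them.

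K314/315R over pTV is likewise the sum of 2 comparisons that chose the genes and is given without a test. The limits of a call were met by 9 of the 10 probes and by 5.1% of all tested probes. The median log2 difference was 2.17, against −0.01 over all tested probes. *Phf11* was higher by at least 11.9-fold and *Trim30* by at least 7.70-fold, bounds that hold for the scanner's own background correction. With normexp the log2 difference was 1.89 for *Phf11* and 1.17 for *Trim30*. *D14Ertd668e*, with 1 of 3 pTV arrays well above background, was higher by 3.50 ± 0.32 (SE) on the log2 scale, and by 1.52 with normexp. *Trim21* was higher by 2.56 ± 0.18 (SE), *Trim34* by 1.72 ± 0.23 (SE) and *Trim25* by 1.60 ± 0.16 (SE). For these 9, slide and cell line cannot be told apart, and the shift of 1.13 between the spike-in controls does not bound a slide effect on single probes. Of the 9, only the second *Trim25* probe (log2 difference 1.06) differed by less than that shift. It met the limits without KTR replicate 2 or 3 or pTV replicate 1, and missed them in the other 11 of the 14 fits without a single array. With normexp 2 of the 10 probes met them.

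The mutants differ by the exchange that KTR has beyond K314/315R. The difference between them is also fixed by comparisons that chose the genes, each mutant over wt, and is given without a test. Of the 10 probes 0 met the limits of a call, while 0.492% of all tested probes were called lower in KTR, and nothing is read from this count. The log2 difference of KTR from K314/315R was −1.04 ± 0.32 (SE) for *D14Ertd668e*, with no overlap of arrays. It was −0.52 ± 0.34 (SE) for *Phf11*, −0.42 ± 0.29 (SE) for *Trim30*, −0.24 ± 0.23 (SE) for *Trim34*, −0.21 ± 0.18 (SE) for *Trim21* and −0.12 ± 0.16 (SE) for *Trim25*. These values do not show that the mutants act alike. All 10 differences, from −1.04 to 0.05, were smaller in size than the spike-in shift of 1.13 between the slides of the mutants, and its part in them was not tested.

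The response of wt cells to 3 h of TNFα was tested on wt arrays at 3 h that all 3 comparisons behind the choice of genes had used. None of the 10 probes was called (limma), beside 1.12% of all tested probes called higher, and 2 had an unadjusted p under 0.05. *Trim21* was 1.70-fold higher at 3 h (log2 difference 0.77 ± 0.16 (SE), limma adjusted p = 0.0186), under the 1.8-fold that a call needs. Its adjusted p was over 0.05 without wt replicate 1 or 2 at 3 h or wt replicate 1 or 3 at 0 h, up to 0.0825. On slides 1, 2 and 3 it was higher by 0.79, 0.83 and 0.68 at 3 h than at 0 h. *Trim34* differed by 0.48 at the main probe (limma adjusted p = 0.27), and with the slide as a fixed term, in a limma fit chosen after seeing the data, its adjusted p was 0.0449, still under 1.8-fold. Within the slides the main *Trim34* probe was higher by 0.50, 0.34 and 0.60, and the second by 0.50, 0.60 and 0.71.

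For the genes that were lowest in pTV, the TNFα difference was small against its error in the main fit, which does not pair arrays by slide. *Phf11* differed by 0.28 (95% interval −0.39 to 0.96), *D14Ertd668e* by 0.17 (−0.46 to 0.81) and the main *Trim30* probe by 0.07 (−0.49 to 0.64). Within slides 1, 2 and 3 the difference was 0.23, 0.24 and 0.38 for *Phf11* and 0.03, 0.26 and 0.22 for *D14Ertd668e*. It was −0.20, 0.26 and 0.16 for the main *Trim30* probe. With the slide as a fixed term, in the limma fit chosen after seeing the data, the adjusted p was 0.515 for *Phf11* and 0.703 for *D14Ertd668e*. *Trim25* gave 0.01 (−0.30 to 0.32) at the main probe. At 4 of the 10 probes, from *Trim21*, *Trim34* and *Trim25*, all 3 arrays at 3 h lay above all 3 at 0 h, as for 13.5% of all tested probes. The median difference was 0.30 over the 10 probes and −0.04 over all tested probes.

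**Figure D3:**
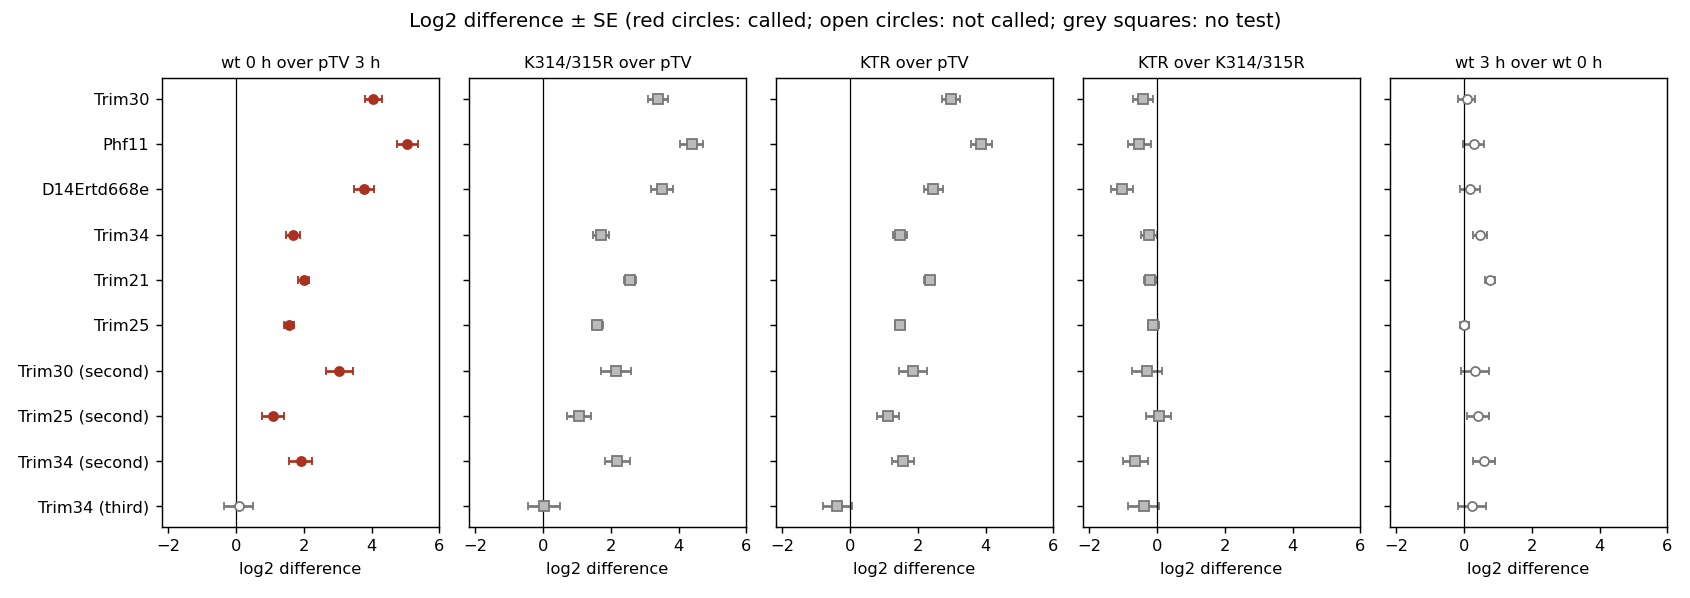
Log2 difference (horizontal axis) ± SE from limma for the 10 probes in 5 comparisons. Circles are the comparisons that were tested, red where called and open where not, and grey squares are those given without a test. The first 3 panels share the pTV arrays, where *Phf11* and the main *Trim30* probe were not well above background. The points of these probes are measured differences and not bounds. The 9 called probes of the first panel lie between 1.09 and 5.05, and no probe was called by TNFα.

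Other Trim genes did not move as a family. The array named 47, of which 32 were tested by 59 probes. *Trim12* (now *Trim12a*), a neighbour of *Trim30a* and *Trim34a*, was the only one of them called higher in untreated wt than in pTV, by both probes (log2 differences 1.57 ± 0.16 and 1.46 ± 0.16 (SE), limma adjusted p = 3.26e-05 and 5e-05). It was also called in KTR (1.26 and 1.24) and K314/315R (1.70 and 1.51), each over pTV, and its promoter window held the ISRE core, 1 of 3 to do so among the 34 other Trim genes with a window. *Trim65* was called higher in KTR over pTV by 0.88 on the log2 scale and is named because the count was small. *Trim16* was called lower in untreated wt than in pTV by all 3 probes, with log2 differences of −1.03 to −1.24. A probe of *Trim66*, not well above background on any KTR array, was at least 1.60-fold lower in KTR than in pTV (limma adjusted p = 0.000412). The other tested *Trim66* probe, well above background on all 14 arrays, was not called there (log2 difference −0.74). K314/315R, on its own slide, had 7 Trim probes of 7 genes lower than pTV, among them *Trim16* (−1.79) and *Trim55* (−1.51), where KTR had 1 and untreated wt 5. Of all tested probes 6.43% were called lower in K314/315R than in pTV, 1.95% in KTR and 2.68% in untreated wt. Between the mutants, 3 of the 59 probes were called higher in KTR. They were *Trim54* (1.27), *Trim16* (1.04) and *Trim14*, at least 1.53-fold higher, beside the spike-in shift of 1.13 between their slides. TNFα changed none of the 59 probes past the threshold. The median log2 difference of the 59 probes from pTV was −0.03 for untreated wt, 0.00 for KTR and −0.01 for K314/315R.

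The genes of interferon signalling, from receptors to transcription factors, were listed beside the 6, and 21 of 24 were tested by 34 probes. In untreated wt over pTV, 16 probes of 9 genes were called higher and none lower, beside 4.74% of all tested probes called higher. The highest were *Usp18*, which removes ISG15 and restrains the interferon receptor, at a log2 difference of 5.88 ± 0.52 (SE), and *Irf7*, a factor that amplifies interferon expression, at 3.24 ± 0.55 (SE), each with 2 of 3 pTV arrays well above background. KTR exceeded pTV at 22 probes of 13 genes, led by *Usp18* (4.75) and *Irf1* (2.57), and K314/315R at 20 probes of 12 genes, with 1 probe of *Irf3* lower (−0.88). Of all tested probes, 4.06% were called higher in KTR over pTV and 5.1% in K314/315R over pTV. By TNFα 4 probes of 3 genes were called higher, beside 1.12% of all tested probes. Among them were *Jak2* by 1.18 and *Irf5* by 1.13 on the log2 scale. *Ifnb1*, the gene of interferon-β, was not well above background on any array. Between the mutants 0 of the 34 probes were called.

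In the RIG-I pathway, through which *Trim25* acts, 14 of 15 listed genes were tested by 25 probes. Untreated wt exceeded pTV at 9 probes of 6 genes, led by *Isg15*, the ubiquitin-like modifier (log2 difference 5.02 ± 0.38 (SE)), and *Dhx58*, a RIG-I relative (3.36 ± 0.25 (SE)). KTR exceeded pTV at 10 probes of 6 genes, with *Isg15* at 4.49 and *Ddx58*, the gene of RIG-I, higher by at least 2.24-fold at a probe where no pTV array was well above background. K314/315R exceeded pTV at 13 probes of 8 genes, with *Isg15* at 4.92 and *Dhx58* at 2.87. Of all tested probes, 4.74%, 4.06% and 5.1% were called higher in untreated wt, KTR and K314/315R, each over pTV. By TNFα both probes of *Tank*, an adaptor of Tbk1, were called higher (1.04 and 0.95) and no other. Named after their values were seen, *Ikbke* (0.74) and *Tbk1* (0.43 and 0.54) had a limma adjusted p under 0.05 and stayed under 1.8-fold. These lists were chosen with earlier results of the arrays known, so their counts are a description. *Usp18*, *Isg15* and *Dhx58* are listed in the paper as lower in KTR than in wt.

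**Figure D4:**
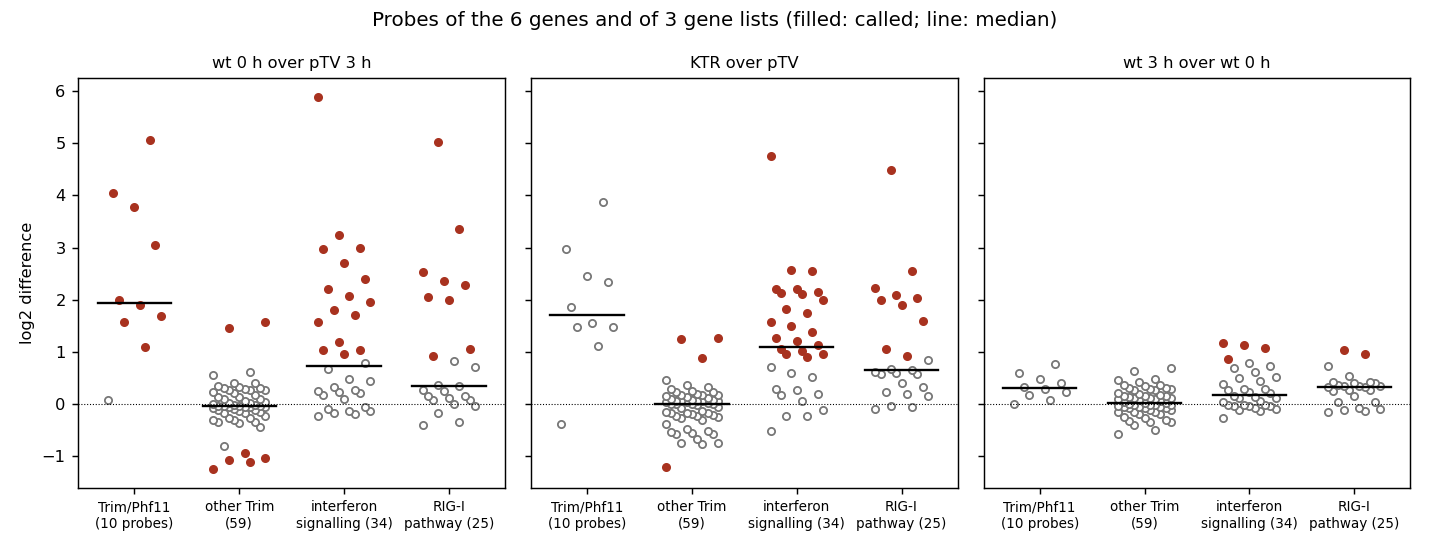
Log2 difference (vertical axis) of each tested probe of the 6 genes and of 3 gene lists in untreated wt over pTV, KTR over pTV and wt at 3 h over 0 h. Filled points were called, the 6 genes in KTR over pTV are open since they were not tested there, and the line is the median. In the first panel the median is 1.94 for the 6 genes and −0.03 for the other Trim genes, and in the last panel 0 of the 10 probes of the 6 genes were called.

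The genes whose pattern over the 14 arrays was most like each of the 6 were sought among 20934 probes, by Pearson's r across arrays that share groups and slides, as a description. *Bst2*, which encodes the antiviral membrane protein tetherin, was among the 2 most like both *Phf11* (r = 0.995) and *Trim30* (0.995). For *D14Ertd668e* the 2 were *Ifi44* (0.995) and *H2-K1* (0.990), and for *Trim34* *Samd9l* (0.983) and *Trim12* (0.982). *Trim21* was most like *Icam1* (0.989), which encodes an adhesion molecule, and *Slfn2* (0.987). *Trim25* was most like a probe without a gene symbol (0.989) and *Isg15* (0.989). Among the 6 themselves, the main probes of *Phf11* and *Trim30* were the closest pair (0.994) and those of *Trim21* and *D14Ertd668e* the least close (0.907).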

How the data were processed

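For each of the 14 arrays the authors deposited the Agilent Feature Extraction output (version 9.1 in the submitters' processing notes, 9.1.1.1 in the files of slides 1 to 3 and 9.1.3.1 in those of slide 4), whose spot intensity the software had corrected for background but not scaled between arrays. The normalized intensity values that the authors deposited beside it were the same signal times a factor for each array (0.837 to 1.20, within 1% for at least 99.6% of probes) and served as an alternative. Outlier spots, 1 to 326 on an array, were dropped and the remaining spots of each probe averaged. Log2 of the signal over the array's 75th percentile (967 to 1442) was then taken. Saturated probes numbered 0 to 10 on an array.

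Tested probes were those that some group had well above background on each of its arrays (22172 of 41174). The 5 comparisons were fitted with limma 3.58.1 in R 4.3.3 (data.table, version 1.17.8), all 14 arrays in 1 fit, two-sided, Benjamini-Hochberg over all tested probes. For the 6 genes, KTR over pTV, K314/315R over pTV and KTR over K314/315R follow from the comparisons that chose them and are given without a test. For 5 probes, none of the 6 genes, 1 group had no value. The small number of arrays limits the precision. "At least N-fold" compares the bright group's mean with a floor, taken on each dim array as the dimmest probe still well above background there, or the probe's own signal where that was higher.

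The members, gene lists and tests were chosen with earlier results of these data known. Named genes are all probes of the 6 genes, from each list at most the 2 highest and 2 lowest called per comparison, and the 2 genes most like each main probe, of which 1 is not reported here. Accessions matched the reference for 22951 probes. Replicate numbers paired the arrays on slides 1 to 3, where number and slide coincide: deviations from the group means correlated at 0.308 to 0.613 in all 18 same-number pairs and at −0.510 to 0.0954 in the 36 others. With K314/315R the 8 same-number pairs ranged from −0.101 to 0.411. Alternatives were other background correction, normalization, filters, blocks and single arrays left out.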

Additional observations from a re-analysis of the deposited data

How the results depend on the processing

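The counts of probes that met the limits of a call, named calls here, were recomputed under each alternative. For KTR over pTV, K314/315R over pTV and KTR over K314/315R the counts only describe the fit, since these comparisons are given without a test. Normexp background correction with an offset of 50 left 2 of the 9 calls in KTR over pTV, 2 in K314/315R over pTV and 2 in untreated wt over pTV. Under it wt replicate 1 at 3 h and pTV replicate 2 had an array median of −0.52 and −1.28, where the other 12 had −3.22 to −2.29, and the lowest signal minus local background on these 2 arrays was −65203 and −20249.2. With such local backgrounds replaced by the array's median local background, a fit chosen after seeing the data, the counts were 6, 8 and 7. Restricting the test to probes present on all 14 arrays kept 4 of the 10 probes, and all 4 were called in each of these comparisons, since fewer were tested. The counts stayed at 0 for TNFα and between the mutants in all alternatives. With the replicate block, where the numbers pair the arrays, the counts were 9, 9, 9, 0 and 0, and no call changed. With the slide as a random block 8 probes were called in K314/315R over pTV, and without the filter on dim probes 8 in each comparison with pTV. Leaving out single arrays gave 8 to 9 calls in each comparison with pTV.

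The second *Trim25* probe was the only one of the 9 whose call was lost without a single array, and the one lost with the random block (limma adjusted p = 0.0888) and without the filter (0.0717 to 0.104). It was also the one lost in KTR and K314/315R over pTV when only the arrays of the 2 groups compared were fitted. Over these fits its log2 difference ranged from 0.86 to 1.53 in KTR, 0.88 to 1.35 in K314/315R and 0.91 to 1.37 in untreated wt, each over pTV. The limma adjusted p of *Trim21* by TNFα was 0.00497 to 0.0825 without single arrays, 0.594 under normexp and 0.057 without the filter on dim probes.

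The direction turned only for differences that were not called or had no test. Under normexp these were −0.27 for *Trim25* by TNFα and 0.21 for it in KTR over wt, −0.43 and −0.68 for the third *Trim34* probe in K314/315R and untreated wt over pTV, and −0.31 for the second *Trim25* probe between the mutants. With local backgrounds replaced they were −0.0066 and −0.0291 for *Trim25* and the third *Trim34* probe by TNFα, −0.13 for the latter in K314/315R over pTV and 0.0475 between the mutants, and −0.24 for the second *Trim25* probe between the mutants. That probe gave −0.0289 with quantile normalization and −0.0324 in the authors' table. Without single arrays the TNFα difference ranged from −0.17 to 0.28 for *Trim30*, −0.12 to 0.73 for its second probe, −0.11 to 0.12 for *Trim25*, −0.0703 to 0.415 for the third *Trim34* probe, −0.0262 to 0.54 for *Phf11* and −0.13 to 0.45 for *D14Ertd668e*. Between the mutants it ranged from −0.27 to 0.0366 for *Trim25*, −0.21 to 0.47 for its second probe and −0.56 to 0.0795 for *Trim34*. The third *Trim34* probe ranged from −0.86 to 0.19 in KTR, −0.46 to 0.59 in K314/315R and −0.41 to 0.63 in untreated wt, each over pTV. Of the differences without a test, *Trim25* in K314/315R over wt (−0.13 to 0.17 without single arrays), its second probe in KTR over wt (up to 0.0331) and the third *Trim34* probe in wt over pTV (−0.17 to 0.88) also turned.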
